A study of Homo sapiens with 4 samples.

Results

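The 10 genes described here encode matrix metalloproteinases (MMPs), namely MMP1, MMP2, MMP3, MMP9, MMP13, MMP14 and MMP15, and their tissue inhibitors, namely TIMP1, TIMP2 and TIMP3. They were chosen by name but, like the lists of related genes below, with earlier results of these data known. Counts over them are therefore descriptive. All 10 were found among the 18417 genes that the array annotation names with 1 symbol. Where several probe sets carried a gene's symbol, the brightest by its mean over the arrays was taken. RNA came from cells labelled PC3, an established human line that was derived from prostate cancer in bone. PC3-SCR cells, the control (VC-PC3 in the study's own text), carried the empty pBABE vector, and PC3-PDEF cells overexpressed PDEF, the ETS transcription factor encoded by SPDEF. There were 2 arrays in each group, from cells grown in DMEM/F12 medium with serum, and the sources name neither clones nor separate cultures. The p-values therefore cover nothing beyond the spread of these arrays, which may be technical.

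MMPs are zinc enzymes that cut collagens, laminins, fibronectin and other proteins outside the cell. Most are secreted as inactive precursors, and some, such as MMP14 and MMP15, are anchored in the plasma membrane. TIMPs bind the active site of MMPs and block it, but TIMP2 also links the MMP2 precursor to MMP14 at the cell surface, where a further MMP14 molecule begins its activation. In carcinomas these enzymes are known for the breakdown of basement membrane at the invading edge.

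The upstream sequences of the genes with the largest changes, MMP14 and TIMP3, and of MMP15, the membrane-type paralog of MMP14, are shown because PDEF is a DNA-binding protein. They are the 250 bases before the RefSeq start (GRCh38.p14), of which entries were found for 4 of the 10 genes. Capitals mark GGAT, or ATCC where it lies on the opposite strand, the core that PDEF is known to prefer among ETS sites.
MMP14 (chr14:22836335-22836584, plus strand): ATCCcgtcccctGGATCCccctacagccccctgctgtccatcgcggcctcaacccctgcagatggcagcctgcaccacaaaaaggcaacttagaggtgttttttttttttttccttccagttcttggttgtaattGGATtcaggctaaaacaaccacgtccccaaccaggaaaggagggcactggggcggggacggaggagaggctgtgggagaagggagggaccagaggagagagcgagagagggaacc
MMP15 (chr16:58025504-58025753, plus strand): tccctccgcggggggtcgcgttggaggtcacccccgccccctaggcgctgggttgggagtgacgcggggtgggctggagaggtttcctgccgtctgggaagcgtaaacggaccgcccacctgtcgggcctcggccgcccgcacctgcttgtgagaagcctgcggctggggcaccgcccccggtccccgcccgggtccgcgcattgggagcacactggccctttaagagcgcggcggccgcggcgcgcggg
TIMP3 (chr22:32801455-32801704, plus strand): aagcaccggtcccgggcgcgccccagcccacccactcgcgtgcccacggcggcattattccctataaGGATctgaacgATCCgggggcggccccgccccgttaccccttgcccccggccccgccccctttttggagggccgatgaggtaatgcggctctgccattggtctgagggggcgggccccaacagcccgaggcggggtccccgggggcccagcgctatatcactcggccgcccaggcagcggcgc
The MMP14 window held 4 GGAT matches on either strand, 2 of them overlapping, the TIMP3 window held 2, TIMP1 held 3 and MMP15 held 0. Such a match was present in 71.1% of the 27305 upstream windows of the same length, and the ETS core GGAA in 92.8%. The longer form CCGGAT was found in TIMP3, with 1 match, as in 5.80% of all windows. The AP-1 element TGANTCA, present in 6.60% of all windows, was found in none of the 4, and the GC box GGGCGG, present in 42.3%, was found 5 times each in MMP15 and TIMP3, 2 times in TIMP1 and 1 time in MMP14. A match is a run of letters and does not show that a factor was bound.

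SPDEF signals were 5.99 and 6.06 in PC3-SCR and 6.85 and 6.73 in PC3-PDEF. The log2 fold change was 0.765 (limma, SE 0.088, adjusted p = 0.000563), a 1.70-fold higher signal. The PC3-SCR signals were just above the highest olfactory receptor gene (5.94 and 6.01), which serves below as the background gauge. The arrays labelled PC3-PDEF also carried signal of genes that PC3 cells are known to lack. CTNNA1 stood at 4.77 and 4.07 in PC3-SCR and at 9.76 and 9.86 in PC3-PDEF, and STAT3 at 4.51 and 4.70 against 9.06 and 9.05. Among 8 measured genes of embryonic kidney, 4 were higher and 1 was lower in PC3-PDEF, where 26.7% of all genes were higher and 24.0% lower, with a mean signal of 5.82 to 5.85 in PC3-SCR and 6.55 to 6.57 in PC3-PDEF. Of these EYA1, SALL1 and HOXD11 rose at least 2-fold, and PAX8 fell by 0.83. Among 8 measured genes of prostate and other epithelium, 4 were lower (2 without PC3-SCR replicate 1), and KRT19 and EPCAM fell at least 2-fold, while the prostate gene HOXB13 had signals of 6.63 and 6.65 against 6.78 and 6.74. None of the 8 fibroblast, 5 immune and 5 endothelial genes measured was higher in PC3-PDEF, while 4, 1 (CD68) and 3 (KDR among them) were lower. Without either PC3-PDEF array 2 fibroblast and 1 endothelial genes were lower, and without PC3-SCR replicate 2 it was 1 endothelial gene. Mean signals of these lists were 4.90 to 5.10, 4.82 to 4.86 and 4.80 to 4.97 in PC3-SCR against 4.46 to 4.52, 4.28 to 4.32 and 4.16 to 4.17. Only 1 gene of each list was above the background gauge in both PC3-SCR arrays. Among all genes below that gauge in every array, 17.2% were called lower and 7.38% higher. What part this has in the lower signals of these lists was not tested. Both PC3-PDEF arrays show the CTNNA1 and STAT3 signal, so no comparison can be made without it. Overexpression of PDEF and whatever else separates these cells cannot be told apart, and in RNA of whole cultures fewer cells of a kind and less RNA per cell cannot be told apart either.

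Every member passed the test, where 50.7% of all genes did. Groups were compared with limma on the log2 signals, with Benjamini-Hochberg adjustment over all 18417 genes and calls at an adjusted p under 0.05. TIMP3, MMP2, MMP15 and TIMP1 were higher in PC3-PDEF, and 26.7% of all genes were higher. MMP14, MMP1, TIMP2, MMP13, MMP9 and MMP3 were lower, and 24.0% of all genes were lower. Over the 10 genes the median log2 fold change was -0.77, beside -0.05 over all genes. At least 2-fold changes were found upward for TIMP3 and MMP2 and downward for MMP14 and MMP1, beside 8.67% and 6.07% of all genes. For every member the PC3-PDEF signals lay wholly above or below those of PC3-SCR, as was true of 74.7% of all genes. Without PC3-PDEF replicate 2, 2 members (MMP2 and MMP15) were called higher, and in all 3010 genes were. Leaving out any 1 array left 2326 to 2856 genes called lower.

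As a gauge of background, the 341 olfactory receptor genes measured, most of which are known mainly from the nose, reached at most 5.94 and 6.01 in PC3-SCR and 5.65 and 5.75 in PC3-PDEF. That gene was OR2H2 in every array, and OR51E1 and OR51E2, the members of the family known from prostate, were included with signals of 3.50 to 4.08. MMP14, TIMP1 and TIMP2 were above that level in every array. MMP2, MMP15 and TIMP3 were above it only in the PC3-PDEF arrays. MMP1, MMP3, MMP9 and MMP13 were below it in all 4 arrays.

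**Figure D1:**
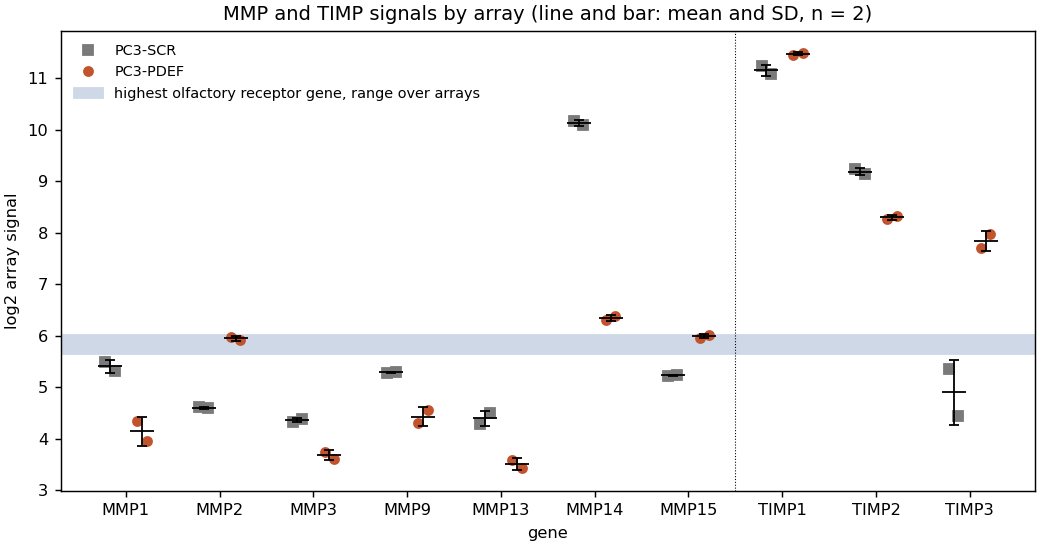
Log2 array signal (vertical axis) of the 10 genes (horizontal axis) in the arrays of PC3-SCR (squares) and PC3-PDEF (circles). Lines and bars give the mean and SD of a group (n = 2), and the band is the highest olfactory receptor gene of the 4 arrays, 5.65 to 6.01. MMP14 drops from 10.18 and 10.09 to 6.30 and 6.38, TIMP3 climbs from under the band to 7.70 and 7.97, and signals should be compared within a gene only.

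MMP14, which encodes the membrane-type collagenase MT1-MMP, showed the largest change of the 10. Its signals were 10.18 and 10.09 in PC3-SCR and 6.30 and 6.38 in PC3-PDEF. Both PC3-PDEF arrays were far below both control arrays, and still above the highest olfactory receptor gene. It changed by -3.80 on the log2 scale (limma, SE 0.086, adjusted p = 2.66e-06), a 13.9-fold lower signal. MMP15 encodes MT2-MMP, a related membrane-type enzyme. Its signals were 5.22 and 5.24 in PC3-SCR and 5.96 and 6.02 in PC3-PDEF. It rose by 0.76 (limma, SE 0.081, adjusted p = 0.000396), from below to just above the background gauge, so the size of its change is not exact.

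The gelatinase genes MMP2 and MMP9, whose enzymes cut denatured collagen and the type IV collagen of basement membranes, changed in opposite directions. MMP2 had signals of 4.61 and 4.59 in PC3-SCR and of 5.98 and 5.92 in PC3-PDEF. It rose by 1.35 (limma, SE 0.081, adjusted p = 3.85e-05), a 2.55-fold higher signal, and lay 0.33 and 0.17 above the highest olfactory receptor gene of its PC3-PDEF arrays. The control level is at background, so that the fold is not exact. MMP9 had signals of 5.28 and 5.30 in PC3-SCR and of 4.30 and 4.56 in PC3-PDEF. Its log2 fold change was -0.86 (limma, SE 0.11, adjusted p = 0.000818). The control arrays were the higher ones for MMP9, but no array exceeded the background gauge. Both control arrays (2 of 2) and 1 PC3-PDEF array exceeded the 95th percentile of the olfactory receptor genes.

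The collagenase genes MMP1 and MMP13, whose enzymes cleave fibrillar collagen, and MMP3, which encodes stromelysin-1, an enzyme that also activates other MMP precursors, were lower in PC3-PDEF at signals near background. MMP1 had signals of 5.50 and 5.32 in PC3-SCR and of 4.34 and 3.95 in PC3-PDEF. Its log2 fold change was -1.27 (limma, SE 0.15, adjusted p = 0.000543), and without PC3-SCR replicate 1 it was -1.18, with an adjusted p of 0.0504. The control arrays exceeded the 95th percentile of the olfactory receptor genes (4.58 and 4.54), which the PC3-PDEF arrays did not (4.49 and 4.42). MMP13 had signals of 4.29 and 4.50 against 3.59 and 3.43, a log2 fold change of -0.89 (limma, SE 0.11, adjusted p = 0.000737). MMP3 had signals of 4.33 and 4.39 against 3.75 and 3.61, a log2 fold change of -0.68 (limma, SE 0.090, adjusted p = 0.00103). Neither gene exceeded that percentile in any array. Dim probe sets tended downward in PC3-PDEF in these arrays. Of the olfactory receptor genes 12.3% were called lower and 0.880% higher, with a median log2 fold change of -0.12 and 0 changes of at least 2-fold. Among the 7179 genes below the background gauge in all 4 arrays, 17.2% were called lower and 7.38% higher, with a median of -0.11. What part this has in the lower signals of MMP1, MMP3, MMP9 and MMP13 was not tested.

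Of the inhibitors, TIMP3 rose most. It encodes a TIMP that is held in the extracellular matrix and also inhibits ADAM10, ADAM17 and several ADAMTS enzymes. TIMP3 signals were 5.35 and 4.45 in PC3-SCR and 7.70 and 7.97 in PC3-PDEF. The control arrays differed by 0.90 from each other, and both lay below the PC3-PDEF arrays by at least 2.35. The log2 fold change was 2.94 (limma, SE 0.28, adjusted p = 0.000237), a 7.65-fold higher signal that is not exact, as both control arrays were below the background gauge. The adjusted p was 0.0537 without PC3-PDEF replicate 2. Its other probe set, matched to a separate transcript record, had signals of 3.85 and 3.85 against 4.55 and 4.58, and with both probe sets averaged the log2 fold change was 1.83, so its size depends on the probe set.

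TIMP2, whose protein inhibits MMPs and couples the MMP2 precursor to MMP14, was lower in PC3-PDEF. Its signals were 9.23 and 9.14 in PC3-SCR and 8.27 and 8.33 in PC3-PDEF, all above background. It fell by 0.89 (limma, SE 0.085, adjusted p = 0.000252), a 1.85-fold lower signal. TIMP1, a secreted inhibitor of most MMPs, had signals of 11.23 and 11.08 in PC3-SCR and of 11.46 and 11.50 in PC3-PDEF. Its log2 fold change was 0.33 (95% interval 0.11 to 0.54, adjusted p = 0.0245 from limma), the smallest of the 10. It lost the call when the arrays were centred on their medians (adjusted p = 0.0530) and without PC3-SCR replicate 2 (0.0988), PC3-PDEF replicate 1 (0.124) or PC3-PDEF replicate 2 (0.154).

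Genes whose proteins act together were compared within the arrays. Of the genes paired here MMP14, TIMP1 and TIMP2 were above the background gauge in every array, whereas MMP2, MMP15 and TIMP3 were below it in PC3-SCR, so that differences with these 3 are not exact in size. The log2 fold change of MMP14 was lower than that of TIMP2 by 2.91, with 2.92 and 2.90 as the ends of the range over pairs of a PC3-PDEF with a PC3-SCR array. TIMP1 gained 1.21 on TIMP2 (range 1.17 to 1.25). With the control level of a gene at background, MMP14 had a difference of about -5.15 against MMP2 and -4.56 against MMP15, MMP2 of about 2.24 against TIMP2, and TIMP1 of about -2.61 against TIMP3. For each of the 6 pairs of genes compared, the two-sided exact permutation p was 0.333 (also 0.333 after adjustment over the 6), the smallest that 2 arrays against 2 allow. The design cannot reach a p under 0.05 for them.

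Of 16 further MMP genes listed, 15 were measured, of which 4 fell (26.7%, beside 24.0% of all genes), 0 rose (26.7% of all genes did) and 11 failed the test. Their median log2 fold change was -0.06. Those that fell were MMP16, MMP17, MMP19 and MMP24, of which MMP17 and MMP19 are named after their values were seen. Only 1 of them fell at least 2-fold, MMP16, which encodes the membrane-type enzyme MT3-MMP. It had signals of 7.22 and 7.21 in PC3-SCR and of 5.98 and 6.11 in PC3-PDEF (log2 fold change -1.17, limma, adjusted p = 8.89e-05), and with its probe sets averaged the log2 fold change was -0.67. MMP17, the gene of the membrane-linked MT4-MMP, had 6.17 and 6.25 against 5.45 and 5.65, and was above the gauge of background in PC3-SCR only. MMP24, the gene of MT5-MMP, had a mean signal of 4.25 against 3.95 (n = 2 each) and a log2 fold change of -0.31 (limma, adjusted p = 0.0247), with no array above the gauge. MMP19, whose enzyme cuts several matrix proteins, had 4.91 and 4.80 against 4.29 and 4.61. Without PC3-SCR replicate 1 or PC3-PDEF replicate 1, 2 genes (MMP16 and MMP17) were called lower, and without PC3-SCR replicate 2 only MMP16 was lower while MMP10 was called higher. After quantile normalization MMP24 lost its call and MMP12 was called higher (log2 fold change 0.24, limma, adjusted p = 0.0447). Of the 6 membrane-type genes measured, 4 fell (66.7%, beside 24.0% of all genes), namely MMP14, MMP16, MMP17 and MMP24. Only MMP15 rose (16.7%, beside 26.7% of all genes), and MMP25 did not pass.

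Of 4 other MMP inhibitor genes, all measured, 2 fell (50%, beside 24.0% of all genes), 0 rose (26.7% of all genes did) and 2 did not pass. TFPI2, a secreted serine protease inhibitor that can also inhibit MMPs, had signals of 11.77 and 11.51 in PC3-SCR and of 8.34 and 8.69 in PC3-PDEF. It fell by 3.13 (limma, SE 0.15, adjusted p = 1.62e-05). TIMP4, the remaining TIMP gene, had 5.20 and 5.49 against 4.63 and 4.28, with no array above the background gauge. Its change was -0.89 (limma, adjusted p = 0.00314). RECK, a membrane-anchored inhibitor of MMP2, MMP9 and MMP14, had 6.13 and 6.20 against 6.03 and 5.90 and did not pass (log2 fold change -0.20, limma, adjusted p = 0.110). A2M, the plasma protease trap alpha-2-macroglobulin, had signals of 4.01 to 4.18 in the 4 arrays. Leaving out PC3-SCR replicate 1, PC3-SCR replicate 2 or PC3-PDEF replicate 2 left 1 of the 4 inhibitor genes called lower.

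**Figure D2:**
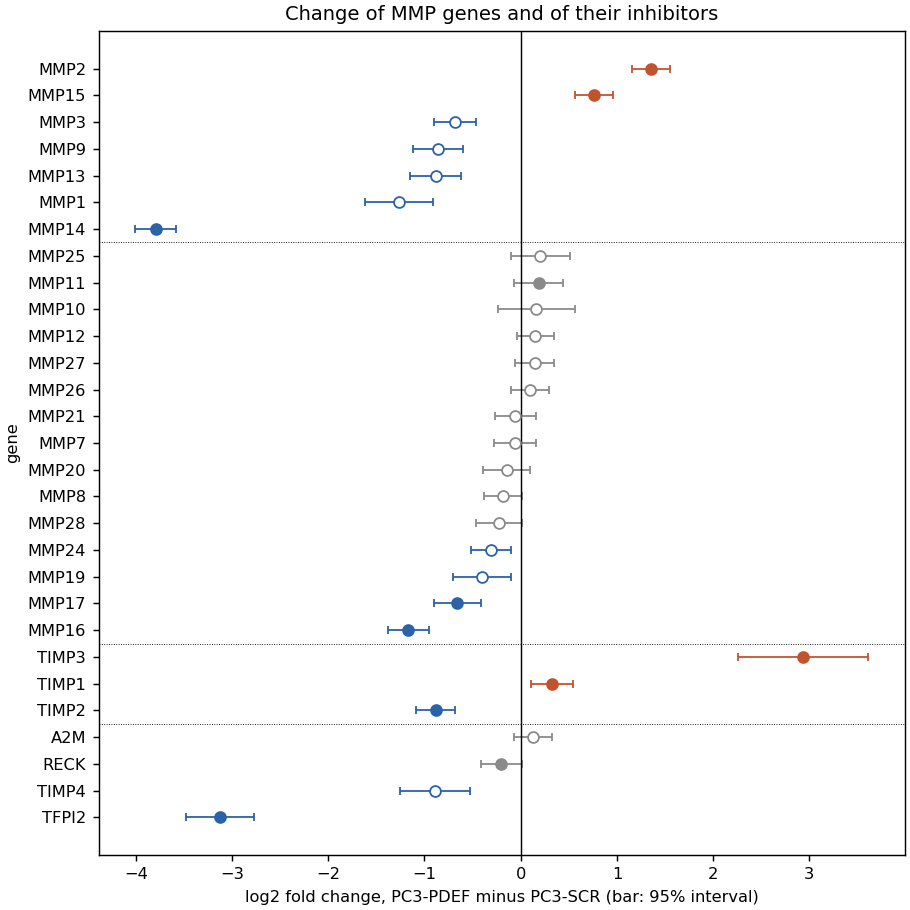
Log2 fold change, PC3-PDEF minus PC3-SCR (horizontal axis, bar: 95% interval from limma), of MMP genes and inhibitor genes (vertical axis), with the 10 chosen genes (MMP1 to MMP15 in the top block, TIMP genes in the block under the other MMP genes) and other inhibitors in the bottom block. Red is called higher, blue lower and grey not called, and open symbols were in neither group above the highest olfactory receptor gene in both arrays. MMP14 lies at -3.80 and TFPI2 at -3.13, with TIMP3 at 2.94 on the opposite side.

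MMP1, MMP3 and MMP13 lie in a cluster of MMP genes on chromosome 11, which in RefSeq order (GRCh38.p14) is separated from YAP1 by 3 protein-coding genes, BIRC3, BIRC2 and TMEM123. In the cluster of 9 MMP genes these 3 were lower (33.3%, beside 24.0% of all genes). The other 6 (MMP7, MMP20, MMP27, MMP8, MMP10 and MMP12) did not pass, and no array exceeded the background gauge for any of the 9. On the side of YAP1, a transcriptional coactivator of the Hippo pathway, YAP1 had signals of 9.28 and 9.18 against 8.05 and 7.94. BIRC2, an inhibitor of apoptosis, had 9.71 and 9.78 against 8.43 and 8.61, and fell by 1.23 (limma, adjusted p = 0.000108). On the opposite side, DYNC2H1, a dynein motor of cilia, had 6.88 and 6.92 against 8.03 and 8.15 and rose by 1.19. Genes beside the cluster thus changed in both directions, where 26.7% of all genes were higher and 24.0% lower. Of 9 measured neighbours listed, 2 rose and 4 fell, and with either PC3-SCR array left out 2 fell.

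TIMP genes overlap other genes, TIMP1 lying within SYN1, TIMP3 within SYN3 and CEP295NL within TIMP2. SYN3, a synapsin gene, had signals of 4.76 and 4.84 in PC3-SCR and of 5.14 and 5.16 in PC3-PDEF (log2 fold change 0.35, limma, adjusted p = 0.0128), and without PC3-SCR replicate 1 or either PC3-PDEF array it was not called. SYN1 and CEP295NL did not pass. No array exceeded the background gauge for any of these 3 genes.

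Activation of MMP precursors depends in part on plasmin, which urokinase and tissue plasminogen activator make from plasminogen, and on furin-like convertases, which act on membrane-type MMPs inside the cell. The list for this step also held serine protease inhibitors. Of its 11 measured genes, 4 rose, 5 fell and 2 did not pass, beside 26.7% of all genes higher and 24.0% lower. One that rose encodes an inhibitor of urokinase and plasmin, SERPINE2, named after its values were seen, which rose by 0.96. PLAU, the urokinase gene, had signals of 12.42 and 12.34 in PC3-SCR and of 8.38 and 8.35 in PC3-PDEF. It fell by 4.02 (limma, SE 0.083, adjusted p = 2.50e-06), the largest change of this list. PLAUR, the gene of its receptor, fell by 2.58 and PLAT, the gene of tissue plasminogen activator, fell by 2.28. Of the convertase genes, FURIN, PCSK5 and PCSK6 rose, while PCSK7, named after its values were seen, fell by 0.68. FURIN, whose enzyme removes the propeptide of MMP14, had 6.27 and 6.07 against 7.05 and 7.11 and rose by 0.91 (limma, adjusted p = 0.000427). PCSK6 rose by 2.15 and PCSK5 by 1.61, each from below the background gauge, so that their sizes are not exact.

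Of 9 measured genes of surface proteins that bind MMPs or their inhibitors, 7 fell, 1 rose and 1 did not pass, where 24.0% of all genes were lower and 26.7% higher, with a median log2 fold change of -1.42 beside -0.05 over all genes. CAV1, the main protein of caveolae, to which MMP14 can localise, had signals of 11.44 and 11.31 against 7.74 and 7.73 and fell by 3.64 (limma, adjusted p = 2.86e-06). CD44, a hyaluronan receptor that binds MMP14 and MMP9, had 10.78 and 10.67 against 7.39 and 7.35 and fell by 3.36. ITGB1, the integrin beta-1 chain, fell by 2.14, and LRP1, an uptake receptor for MMP and inhibitor complexes, fell by 1.42. BSG, which encodes the MMP inducer EMMPRIN, had 10.80 and 10.81 against 11.16 and 11.14 and rose by 0.35 (limma, adjusted p = 0.0116), and leaving out any 1 array ended this call.

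ADAM and ADAMTS genes encode related metalloproteases, some of which TIMP3 also restrains. Of 16 measured, 3 rose, 8 fell and 5 did not pass, beside 26.7% of all genes higher and 24.0% lower, while without PC3-PDEF replicate 2 it was 4 that fell. ADAM10 and ADAM17, the main sheddases of surface proteins, did not pass, with signals of 9.57 and 9.58 against 9.49 and 9.54 for ADAM10 and of 8.89 and 8.95 against 8.80 and 8.84 for ADAM17. The 95% interval of the log2 fold change was -0.26 to 0.14 for ADAM10 and -0.30 to 0.10 for ADAM17. ADAM19 fell by 2.08. ADAMTS6 fell by 3.02 and ADAM8 fell by 1.15, to below the background gauge, and ADAMTS9 rose by 1.94 from below it, so these sizes are not exact. ADAMTS1, whose enzyme cuts proteoglycans, rose by 1.03.

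Of 27 listed inducers of MMP transcription, cytokines and transcription factors, all of them measured, 16 fell, 4 rose and 7 did not pass, where 24.0% of all genes were lower and 26.7% higher. With 1 array left out 12 to 14 of them were lower and 3 higher. Their median log2 fold change was -0.54. The cytokine genes IL1A and IL1B, long known to induce MMP1 and MMP3, fell by 5.00 and 4.66, and TGFB1 fell by 1.61. Among ETS factor genes, ETV1 fell by 3.80, ETV5 fell by 3.63, ETS1 fell by 3.38, ETV4 fell by 3.14 and ETS2 fell by 1.80. IL1A, ETV1, ETV5 and RUNX2 were below the background gauge in both PC3-PDEF arrays and ETV4 in 1 of them, so the sizes of their changes are not exact. The AP-1 genes were divided, as JUN had signals of 8.33 and 8.34 in PC3-SCR and of 11.63 and 11.81 in PC3-PDEF and rose by 3.39, while FOSL1 had 9.86 and 8.92 against 7.60 and 7.11 and fell by 2.04. RUNX2, a factor of bone cells that activates MMP13 there, fell by 2.61. TWIST1 and SNAI2, factors of epithelial-mesenchymal transition, fell by 1.14 and 1.24.

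Of 16 measured genes of matrix proteins that MMPs cut, 1 rose, 10 fell and 5 did not pass, beside 26.7% of all genes higher and 24.0% lower, with a median log2 fold change of -0.42. LAMB3, a chain of laminin-332, which MMP14 and MMP2 cut, had signals of 10.55 and 10.41 against 6.66 and 6.50 and fell by 3.90. TNC, the gene of tenascin C, fell by 3.06 and FN1, the gene of fibronectin, fell by 2.12. COL1A1, a chain of the fibrillar collagen cut by MMP1, MMP13 and MMP14, fell by 1.34. NID1, the gene of the basement membrane protein nidogen-1, had 7.43 and 7.33 against 9.29 and 9.21 and rose by 1.87.

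**Figure D3:**
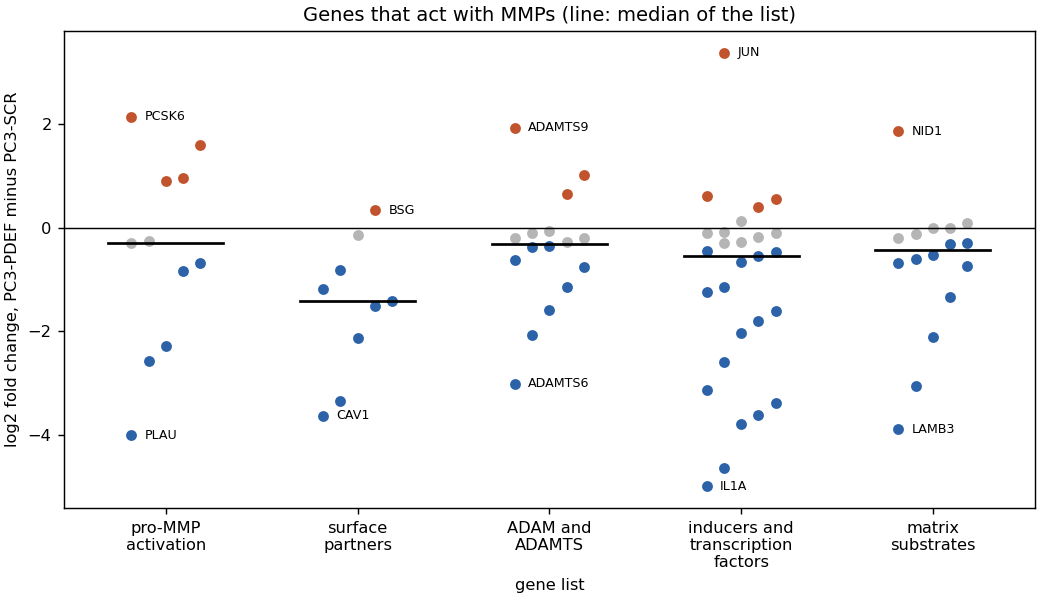
Log2 fold change, PC3-PDEF minus PC3-SCR (vertical axis), of each measured gene of 5 lists (horizontal axis), with the list's median as a line and the extremes named. Red is called higher, blue lower and grey not called. Surface partners have the lowest median, -1.42, and JUN at 3.39 and IL1A at -5.00 (not exact, as PC3-PDEF is below the background gauge) are the ends of the list of inducers.

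The genes closest to MMP14 in pattern, by Euclidean distance over the 4 arrays after each gene's mean was taken off, were PAX8-AS1 (0.036), PLK2 (0.058) and CDCP1 (0.13). PLK2, a polo-like kinase gene, had signals of 9.64 and 9.61 in PC3-SCR and of 5.83 and 5.91 in PC3-PDEF. CDCP1, which encodes a surface glycoprotein, had 11.29 and 11.29 against 7.57 and 7.51. For TIMP3 the closest were MAGEA1 (0.14), GNAQ (0.29) and RASEF (0.38). MAGEA1, a cancer-testis antigen gene, had 4.88 and 3.94 against 7.36 and 7.47. MAGEA1, GNAQ and RASEF all had the same order of the control arrays as TIMP3, which a choice by smallest distance favours. With 4 arrays in 2 groups such likeness mostly reflects the size of the difference between the groups.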

How the data were processed

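RNA of 2 PC3-SCR and 2 PC3-PDEF arrays was hybridized to Affymetrix HuGene-1.0-st-v1 arrays. The authors processed these with Transcriptome Analysis Console, per the submitters' processing notes, and deposited log2 signals of 33297 probe sets. How the background was corrected and the arrays were scaled, and with which version, is not given in the sources used here, and the log base was inferred from the range. Array medians were 5.41 to 5.46, so no further scaling was applied. The platform annotation gave 1 symbol to 19460 probe sets, which were used, and several to 1754. The other 12083 are unnamed here. Of the single entries 99.8% were found in RefSeq (GRCh38.p14), from which symbols were updated. No filter on low signals was applied.

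Genes were compared with limma 3.58.1 (lmFit, eBayes; R 4.3.3), with 2 residual degrees of freedom and 4.23 from the prior, after a test on simulated data. The number of arrays limits the precision. The members, the lists of related genes and the tests were chosen with earlier results of these data known. Named were the 10 members, listed genes called with at least a 2-fold change and above the background gauge in both arrays of a group, and a few fixed ones, among them MMP24, TIMP4, RECK, SPDEF, CTNNA1, STAT3, YAP1, BSG, FURIN, ADAM10 and ADAM17. Listed cell type genes were named in part. Alternatives were quantile normalization, median centring, a filter on low genes, averaged probe sets, an intensity trend, a replicate block and leaving out each array.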

Additional observations from a re-analysis of the deposited data

How the results depend on the processing

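Every member kept its direction under each of the 10 alternatives in which it was tested. Of 94 recomputed changes of members, 87 stayed on their side of the threshold and 7 lost the call, 5 of TIMP1 and 1 each of MMP1 and TIMP3. Among genes above the median level, 2 members were called higher and 2 lower, because the other 6 were not above it. Over all genes, quantile normalization gave 4667 higher and 4736 lower, and median centring gave 4484 and 5589. The shares over all genes used for comparison thus depend on the scaling. Leaving out 1 array at a time gave 2 to 4 members higher and 5 to 6 lower, and over all genes 3010 to 3635 higher and 2326 to 2856 lower, beside 4918 and 4419 with all arrays. The lone array left in a group is then assumed to vary like the others. Of 300 recomputed counts of related lists, 263 were within 1.5 times the count reported. These include counts of 0 that stayed at 0, for which no such range exists. Over all probe sets, deviations from the group mean were nearly uncorrelated between arrays of the same replicate number (correlation 0.0117). This value cannot show whether such arrays shared a shift in some genes. With the replicate number as a block 4355 genes were higher and 3619 lower. TIMP1 alone of the members then lost its call (limma, adjusted p = 0.0646). The changes between paired genes kept their sign under each scaling and with each array left out. Signals of MMP1, MMP3, MMP9 and MMP13 near background limit what can be said of their levels.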
